A study of Mus musculus with 18 samples.

Results

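The macrophage responses to lipopolysaccharide (LPS) and to interleukin-4 (IL-4) were set against each other in wild-type (WT) cells, array by array, at the same time point. The comparison holds 6 of the 18 arrays of the series, namely the 3 of WT bone marrow-derived macrophages (BMM) treated with 100 ng/ml LPS for 8 h and the 3 of WT BMM treated with 50 ng/ml IL-4 for 8 h, chosen by their titles. The BMM of all groups were grown from marrow of C57BL/6 mice in medium conditioned by L929 cells for 8 days, so the control cells carry that growth factor source as well. BMM of Nur77-/- mice (Nur77-KO, a germline deletion) with LPS or with IL-4 (3 arrays each) served as a second pair. WT BMM without stimulation (3 arrays, labelled 0 h) give a level from before treatment, but no array of untreated cells at 8 h was analysed here. The labels name 3 WT and 3 Nur77-KO mice for each batch of marrow and do not say which mouse or culture gave which array, so p-values measure the spread between these arrays, which may be technical.

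LPS is a component of the outer membrane of Gram-negative bacteria. With CD14 and MD-2 it engages Toll-like receptor 4, whose adaptors activate NF-kB and AP-1 and, through TRIF and IRF3, start the production of interferon-beta, which in turn acts on interferon-stimulated genes. IL-4, a cytokine of T helper 2 cells, basophils and mast cells, binds a receptor that phosphorylates STAT6. The states that follow in cultured macrophages are called classical or M1 activation for LPS, known for cytokines, nitric oxide and antimicrobial proteins, and alternative or M2a activation for IL-4, known in the mouse for arginase 1, lectin receptors and chitinase-like proteins.

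RNA levels were measured on bead arrays and are given on a log2 scale after background correction and quantile normalization, where 1 unit is a doubling of intensity. Levels of different genes come from different probes and are not set against each other. A probe was detected on an array when its detection p-value was under 0.05. Detected probes numbered 11829 to 13918 per array with LPS and 13580 to 15695 with IL-4. All 8 macrophage markers with a probe were detected on all 6 arrays, among them Adgre1, an adhesion receptor that marks mouse macrophages, at 14.05, 14.00 and 13.86 with LPS and 14.15, 13.62 and 13.37 with IL-4. Levels of the 8 macrophage markers were not all alike, with 4 higher with LPS and 1 lower (limma, adjusted p under 0.05). These were 50% and 12.5%, against 17.7% and 27.4% of all genes. The summed linear level of the 8 was 75158, 75109 and 79200 with LPS and 69044, 57449 and 51086 with IL-4. Nr4a1, which encodes Nur77, was detected on 0 of 18 arrays, so the arrays do not check the genotype label.

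In each stimulated group 1 array stood apart from the others. WT LPS replicate 3 had 876 genes more than 1 log2 unit beyond both other LPS arrays, and WT IL-4 replicate 1 had 1025 such genes, against 50 to 66 for the other 4 arrays. Correlations over genes were 0.991 between LPS replicates 1 and 2 and 0.961 to 0.962 with replicate 3, and 0.987 between IL-4 replicates 2 and 3 and 0.954 with replicate 1. Among the Nur77-KO arrays, LPS replicate 1 (558 genes) and IL-4 replicate 1 (759 genes) stood apart in the same way. The summed markers of stromal cells and of neutrophils moved with these arrays, though not every member did. The summed linear level of 9 stromal markers was 1745, 1621 and 392 with LPS and 304, 645 and 577 with IL-4 (replicates 1 to 3). Lum, Pdgfrb, Postn and Thy1 were detected on none of the 6 arrays. Dcn alone made up most of the sum on LPS replicates 1 and 2. It had 10.21, 10.14 and 7.07 with LPS and 4.99, 7.93 and 7.56 with IL-4. The sum of 10 neutrophil markers was 2397, 2098 and 5116 with LPS and 4102, 1389 and 1281 with IL-4, with Cxcr2, Mmp8 and Retnlg detected on none. S100a8 had 10.69, 10.58 and 11.73 with LPS and 11.22, 9.57 and 9.53 with IL-4. Elane had 6.80, 6.49 and 6.02 with LPS and 6.04, 5.61 and 5.95 with IL-4. The sum of 7 dendritic cell markers was 432, 390 and 321 with LPS and 270, 343 and 306 with IL-4. Dpp4 and Xcr1 were detected on none, and Siglech alone on all 6 arrays. Of the markers of T cells (5), B cells (3), mast cells and basophils (5) and red cells (3), 0 were detected on all 3 LPS arrays and 1, the B cell receptor component Cd79b, on all 3 IL-4 arrays. Cd79b had 4.83, 5.23 and 4.78 with LPS and 5.79, 6.91 and 6.14 with IL-4 and was called lower with LPS. In such bulk RNA fewer cells of a type and less RNA per cell cannot be told apart, and the part of these arrays' other cells in the results below was not tested. Counts and calls that moved by 1.5 times or more, or were lost, without WT LPS replicate 3, without WT IL-4 replicate 1 or without both are given beside the values from all arrays.

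The largest differences toward LPS were in genes of inflammation and of the interferon response, and those toward IL-4 included Arg1, Retnla, Mgl2 and other genes known from alternative activation. Of 10814 genes with a detected probe, 4869 passed the threshold (limma, adjusted p under 0.05), 1909 of them higher with LPS (17.7% of the genes tested) and 2960 lower (27.4%). Large differences were mostly toward LPS: 104 called genes were at least 4 log2 units higher and 31 at least 4 units lower. The median difference was 1.14 among the genes called higher, -1.02 among those called lower and -0.13 over all genes. On every LPS array 2103 genes (19.4%) lay above every IL-4 array, and 3166 (29.3%) lay below. Detection differed as well, since 122 genes called higher were detected on all 3 LPS arrays and on 0 IL-4 arrays, and 295 called lower showed the reverse. Detected probes per array also differed, at 11829 to 13918 with LPS and 13580 to 15695 with IL-4. The counts of 122 and 295 are therefore not on equal terms. Without both arrays that stood apart, 1760 genes were higher and 2917 lower, and 4172 of the 4869 genes were still called in the same direction.

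**Figure D1:**
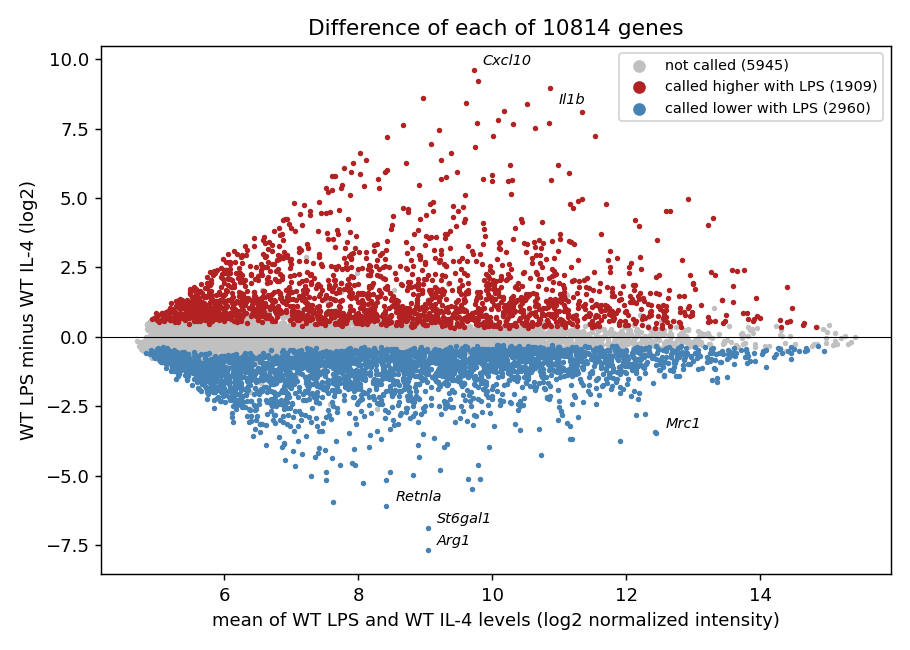
Each point is a gene, with the mean of its WT LPS and WT IL-4 levels on the x axis (log2 normalized intensity) and WT LPS minus WT IL-4 on the y axis (log2); colours mark 1909 genes called higher and 2960 called lower with LPS. The upper edge reaches 9.61 (Cxcl10) and the lower edge -7.68 (Arg1).

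Cxcl10, a chemokine for CXCR3-bearing T cells, had the largest difference. Its level was 14.58, 14.71 and 14.29 with LPS and 5.28, 4.93 and 4.54 with IL-4, where it was not detected on any array. The difference was 9.61 (SE 0.28; limma, adjusted p = 1.08e-12). Since the IL-4 arrays give only an upper bound, Cxcl10 was at least 515-fold higher, this bound being computed against the lowest detected level of each IL-4 array. Cd69, an early activation antigen that holds cells in tissue by removing a sphingosine phosphate receptor from the surface, stood at 14.39, 14.43 and 14.34 with LPS and 4.91, 5.16 and 5.45 with IL-4 (at least 468-fold higher, adjusted p = 8.99e-13). Ifi205, a DNA-binding member of the interferon-inducible p200 family, had 13.22, 13.23 and 13.34 with LPS against 4.84, 4.64 and 4.52 with IL-4 (at least 215-fold higher, adjusted p = 8.42e-16). For all of these genes the LPS arrays lay within 0.5 log2 units of each other and far above the IL-4 arrays. The promoter windows of Cxcl10 (chr5:92348840-92349139, minus strand) and Ifi205 (chr1:174031706-174032005, minus strand) are shown because these genes head the LPS side and hold motifs of the factors named above. They are RefSeq windows of the GRCm38.p6 build, running from 250 bases before to 50 bases after the gene's start, and capitals mark motif matches.
Cxcl10: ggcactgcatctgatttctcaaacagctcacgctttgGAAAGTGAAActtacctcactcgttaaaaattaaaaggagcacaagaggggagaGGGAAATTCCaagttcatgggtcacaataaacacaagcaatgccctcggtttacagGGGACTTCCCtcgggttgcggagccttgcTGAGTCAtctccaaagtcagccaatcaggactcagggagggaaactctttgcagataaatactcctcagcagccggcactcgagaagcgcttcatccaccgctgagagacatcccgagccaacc
Ifi205: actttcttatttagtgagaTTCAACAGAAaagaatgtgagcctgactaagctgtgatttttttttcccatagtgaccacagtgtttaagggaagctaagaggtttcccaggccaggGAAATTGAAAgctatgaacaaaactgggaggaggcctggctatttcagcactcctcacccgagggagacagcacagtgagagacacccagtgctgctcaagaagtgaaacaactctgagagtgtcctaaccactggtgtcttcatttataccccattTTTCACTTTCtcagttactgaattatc
From left to right the capitals in Cxcl10 are an interferon-stimulated response element (GAAANNGAAA), 2 NF-kB motifs and an AP-1 motif (TGANTCA), and those in Ifi205 are a STAT6 motif (TTCNNNNGAA) and 2 interferon-stimulated response elements.

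The other genes that led the LPS side were cytokines, chemokines, interferon-stimulated genes and innate receptors. Il1b, the precursor of secreted interleukin-1 beta, was detected in both groups, at 15.35, 15.38 and 15.29 with LPS and 7.36, 5.77 and 5.99 with IL-4, a difference of 8.96 (SE 0.40; limma, adjusted p = 8.13e-11). Il1a stood at 13.80, 13.65 and 13.99 with LPS and 6.33, 5.29 and 4.60 with IL-4. IL-4 replicate 1 was the highest IL-4 array for both cytokines. The same array held the highest IL-4 level of Fpr2, a formyl peptide receptor (14.60, 14.54 and 14.98 with LPS and 8.50, 5.43 and 5.03 with IL-4). It did so again for Rsad2, the antiviral protein viperin (15.51, 15.42 and 15.26 with LPS and 9.03, 6.51 and 6.34 with IL-4). That array still lay below every LPS array for each of these genes, which the choice of genes without overlap required. Il1a, Ifit2 and Cxcl1 were detected on 1 IL-4 array, and Fpr2 and Cxcl2 on 2, so their differences rest in part on values at background. Ifit2, Ifit3 and Isg15, antiviral proteins, and Cmpk2, a mitochondrial nucleotide kinase encoded next to Rsad2, differed by 8.12, 7.66, 7.70 and 7.52. Clec4e, the receptor Mincle for mycobacterial glycolipid, differed by 7.81 (SE 0.28). Cxcl2 and Cxcl1, chemokines for neutrophils, differed by 7.69 and 7.44, and Cxcl9, induced by interferon-gamma and drawing the same cells as Cxcl10, was at least 124-fold higher.

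**Figure D2:**
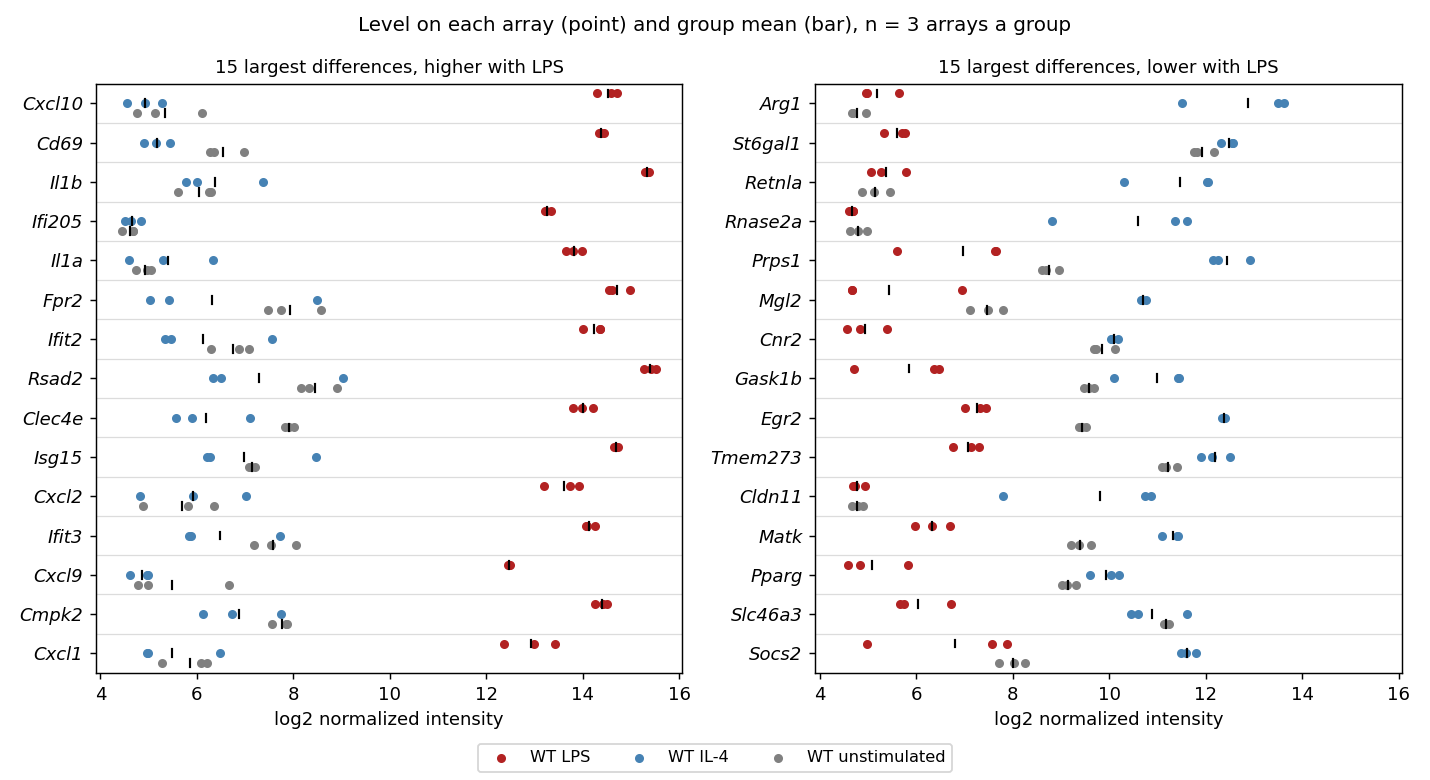
Each point is 1 array (x axis, log2 normalized intensity) for the 15 genes with the largest difference each way; red is WT LPS, blue WT IL-4 and grey WT unstimulated, and bars mark means of 3 arrays. Red and blue points do not overlap because genes with overlap were left out when the 30 were picked. Grey points lie near blue in some rows of the right panel (St6gal1, Cnr2) and near red in others (Arg1, Retnla).

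Arg1 led the other side. It encodes arginase 1, which splits arginine into ornithine and urea and is the classic mark of IL-4 activation in the mouse. Its level was 5.65, 4.95 and 4.99 with LPS, where it was not detected on any array, and 11.50, 13.64 and 13.49 with IL-4 (difference -7.68, SE 0.52; limma, adjusted p = 8.45e-09), at least 135-fold lower with LPS. Retnla, the secreted resistin-like protein RELM-alpha, stood at 5.27, 5.07 and 5.79 with LPS and 10.31, 12.05 and 12.03 with IL-4 (at least 50.8-fold lower). Rnase2a, a ribonuclease related to those of eosinophils, stood at 4.69, 4.69 and 4.61 with LPS and 8.81, 11.62 and 11.36 with IL-4 (at least 27.8-fold lower). IL-4 replicate 1 was the lowest of the IL-4 arrays for all of these. It still lay above every LPS array, which the choice of genes without overlap required. Cldn11, a tight junction protein, followed the same pattern, with 7.80, 10.74 and 10.87 in the IL-4 arrays and at least 16.1-fold less signal with LPS.

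St6gal1, a Golgi enzyme that caps glycoproteins with sialic acid, was detected on 1 of the 3 LPS arrays, so its level there was mostly background, with 5.33, 5.70 and 5.76 under LPS and 12.33, 12.56 and 12.54 under IL-4 (difference -6.88, SE 0.15; limma, adjusted p = 7.01e-14). Egr2, a zinc finger factor of the early growth response family, had 7.33, 7.45 and 7.02 with LPS and 12.35, 12.38 and 12.40 with IL-4. Cnr2, the cannabinoid receptor of immune cells, was not detected with LPS (4.58, 4.84 and 5.41) and had 10.07, 10.05 and 10.19 with IL-4, at least 19.8-fold lower with LPS. LPS replicate 3 differed from the other LPS arrays for several genes of this group. Socs2, a feedback inhibitor of growth hormone signalling, had 7.89, 7.57 and 4.98 with LPS against 11.80, 11.59 and 11.48 with IL-4. Prps1, which makes the ribose donor of nucleotide synthesis, had 7.64, 7.65 and 5.61 with LPS against 12.91, 12.26 and 12.15 with IL-4. Mgl2, a galactose-type lectin receptor, ran the other way on that array, with 4.68, 4.66 and 6.94 under LPS against 10.77, 10.65 and 10.67 under IL-4. The remaining genes among the 15 were Gask1b, Tmem273, Matk, a kinase that restrains Src family kinases, Pparg, a lipid-sensing nuclear receptor, and Slc46a3, a lysosomal transporter, with differences of -5.14 to -4.85. With LPS, Mgl2 and Pparg were detected on 1 array and Prps1, Gask1b, Matk, Slc46a3 and Socs2 on 2. The promoter windows of St6gal1 (the one of its 3 windows that holds a match, chr16:23290220-23290519, plus strand) and Retnla (chr16:48842359-48842658, plus strand) are shown from the 3 leading genes on this side with a match in a window, the other being Gask1b, as one gene that was high and one that was low in unstimulated cells.
St6gal1: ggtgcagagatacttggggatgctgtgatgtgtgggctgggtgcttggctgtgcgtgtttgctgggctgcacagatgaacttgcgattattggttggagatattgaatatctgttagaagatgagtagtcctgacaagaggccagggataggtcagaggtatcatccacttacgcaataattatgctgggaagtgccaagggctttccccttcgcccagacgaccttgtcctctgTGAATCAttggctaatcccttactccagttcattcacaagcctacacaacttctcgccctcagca
Retnla: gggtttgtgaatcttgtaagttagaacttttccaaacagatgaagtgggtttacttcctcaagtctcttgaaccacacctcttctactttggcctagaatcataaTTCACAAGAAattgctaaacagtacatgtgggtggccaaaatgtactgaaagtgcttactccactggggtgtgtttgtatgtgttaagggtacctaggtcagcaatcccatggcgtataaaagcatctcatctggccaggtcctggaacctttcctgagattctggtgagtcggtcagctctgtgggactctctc
The capitals mark an AP-1 motif in St6gal1 and a STAT6 motif in Retnla.

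Motifs were counted in all such windows, on both strands, where the AP-1 and STAT6 motifs read the same on either strand. The interferon-stimulated response element was in 6.51% of 2074 windows of genes called higher with LPS, 2.40% of 3123 windows of genes called lower and 3.33% of 11226 windows of all genes tested. The NF-kB motif was in 6.85%, 4.48% and 5.24%, the AP-1 motif in 6.75%, 5.0% and 5.66%, and the STAT6 motif in 5.88%, 5.54% and 5.72% of the same windows. The share of STAT6 motifs thus lay within 0.4 percentage points among the 3 sets. Some windows of 1 gene overlap, motifs may overlap each other, and a match is not a bound site. Of the 30 leading genes 27 had a window and 13 had at least 1 match.

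Unstimulated WT cells held different places between LPS and IL-4, given here as levels because those arrays were not matched in time. For Cxcl10, Ifi205, Il1a and Il1b the unstimulated level was close to that with IL-4: Ifi205 had 13.26 ± 0.07 with LPS, 4.67 ± 0.16 with IL-4 and 4.61 ± 0.13 unstimulated (SD, n = 3 each). Clec4e was instead lower with IL-4 (7.10, 5.90 and 5.56) than in the unstimulated cells (8.01, 7.91 and 7.83). On the other side Arg1 had 5.20 ± 0.39 with LPS, 12.88 ± 1.19 with IL-4 and 4.77 ± 0.17 unstimulated, and Retnla and Rnase2a were placed alike. St6gal1 showed the opposite placing, with 5.60 ± 0.23 with LPS, 12.48 ± 0.13 with IL-4 and 11.92 ± 0.23 unstimulated, and Cnr2, Pparg, Slc46a3 and Tmem273 also had unstimulated levels within 1.1 units of the IL-4 mean. Egr2 lay between, at 7.27 ± 0.22 with LPS, 12.38 ± 0.03 with IL-4 and 9.45 ± 0.08 unstimulated.

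Cytokines as a group were higher with LPS. The lists here and below were chosen with earlier results of these data known, so their counts describe the listed genes only. Of 22 inflammatory cytokines tested, 18 were called higher, 0 lower and 4 not called (81.8% higher, against 17.7% of all genes), with a median difference of 3.69, or 3.35 with undetected genes at their bound. Of the 22, 9 were detected in 1 group only and entered the test only through that group. The same holds for such members of the lists below. Tnf, the central early cytokine, had 13.62, 13.62 and 13.67 with LPS and 5.68, 6.72 and 6.77 with IL-4. Il6, which drives the acute phase response, had 11.46, 11.33 and 9.82 with LPS and was not detected with IL-4 (4.94, 4.73 and 5.10), at least 40.8-fold higher with LPS. Il27, a heterodimer subunit that acts on T cells, was at least 46.0-fold higher. Csf1, Il23a, Vegfa and Csf2 were the members not called, for instance Vegfa, the endothelial growth factor, at 9.33, 9.0 and 8.78 with LPS and 9.25, 9.22 and 9.10 with IL-4. Chemokines were more mixed, with 11 higher (61.1%, against 17.7% of all genes), 2 lower and 5 not called of 18 (median 1.65). Ccl5, which attracts T cells and monocytes, had 15.13, 15.09 and 15.19 with LPS and 12.22, 6.04 and 5.50 with IL-4. It differed by 7.22 with a wide SE of 1.33 (limma, adjusted p = 0.000333). With IL-4, 1 array lay far above the others (SD 3.73), but the SE pools the spread of all groups in the fit. Ccl24, an eosinophil chemokine, was the strongest of the 2 called lower, not detected with LPS (5.55, 4.79 and 4.59) and at 7.72, 8.09 and 8.07 with IL-4, and Ccl6 was the other. Ccl7, a monocyte chemokine, was high under both stimuli and not called, with 14.02, 14.14 and 13.34 under LPS and 11.38, 13.45 and 13.52 under IL-4.

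Effector genes of microbial defence were called higher in 27 of 28 cases (96.4%, against 17.7% of all genes), with a median of 3.45. Of the 28, 5 were detected in 1 group only and entered the test only through it. Trem1, a receptor that amplifies inflammation, was not called with all arrays, but was without LPS replicate 1 (0.81; limma, adjusted p = 0.0173). Lcn2, which withholds iron from bacteria, had 12.40, 12.46 and 12.79 with LPS and 6.10, 5.23 and 5.52 with IL-4, and Cfb, complement factor B, differed by 5.93 (SE 0.54). Ptges, the inducible prostaglandin E synthase, was at least 55.1-fold higher. NF-kB subunits and their feedback inhibitors were called higher in 18 of 19 cases (94.7%, against the same 17.7%), with a median of 1.94. The largest difference was in Nfkbiz, a nuclear IkB protein needed for secondary response genes, at 13.00, 13.14 and 13.26 with LPS and 8.25, 7.12 and 7.04 with IL-4. Tnfaip3, the deubiquitinase A20 that ends NF-kB signalling, differed by 3.92 (SE 0.15), and Nfkbia, the inhibitor IkB-alpha, by 3.33 (SE 0.19). Nfkbid was the member not called, at 8.29, 8.42 and 8.85 with LPS and 8.30, 8.45 and 8.66 with IL-4.

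Of the genes for LPS sensing itself, the coreceptor and the receptor went opposite ways. Cd14 had 14.27, 14.31 and 14.13 with LPS and 10.79, 9.59 and 9.72 with IL-4, a difference of 4.20 (SE 0.34; limma, adjusted p = 7.27e-08), whereas Tlr4 had 8.81, 8.70 and 8.35 with LPS and 9.98, 10.14 and 10.17 with IL-4, a difference of -1.48 (SE 0.14; adjusted p = 4.07e-07). Of 18 Toll-like receptors and adaptors 11 were called higher (61.1%, against 17.7% of all genes), 2 lower (Tlr4 and the kinase Irak1, 11.1% against 27.4%) and 5 not called. With median scaling 8 were called higher and 0 lower, Tlr4 having an adjusted p of 0.0614 and Irak1 of 0.104 (limma). Tlr2, for bacterial lipopeptides, differed by 3.18 (SE 0.23) and Irak2, a signalling kinase, by 3.39 (SE 0.14). Traf6, the ubiquitin ligase downstream of them, had 9.48, 9.67 and 9.53 with LPS and 9.72, 9.29 and 9.66 with IL-4 and was not called.

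All 33 interferon-stimulated genes tested were called higher (100% against 17.7% of all genes), with a median difference of 3.85, or 3.57 with undetected genes at their bound. Of these, 6 were not detected with IL-4 and entered the test only through the LPS arrays. All 33 were still called after both arrays that stood apart were left out. Of 12 guanylate-binding and immunity-related GTPases, which attack the vacuoles of intracellular microbes, 11 were called higher (91.7%, against 17.7% of all genes, median 3.14). Among the 12, 3 were detected in 1 group only and entered the test only through it. Gbp5 had 12.95, 13.05 and 12.75 with LPS and 7.70, 6.77 and 6.75 with IL-4, and Gbp2, Gbp3 and Igtp differed by 4.52, 4.89 and 4.14. IL-4 replicate 1 was the highest IL-4 array for each of these. Tgtp1 and its near-identical copy Tgtp2 may share probes, so its value of 3.28 is uncertain as to the gene.

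Transcription factors and inhibitors act downstream of the cytokine receptors. Of 22 STAT, IRF and SOCS signalling genes 10 were called higher (45.5%, against 17.7% of all genes) and 6 lower (27.3%, the share of all genes being 27.4%), and 4 were lower without IL-4 replicate 1 and 3 with median scaling. Socs3, which blocks gp130 signalling, had 14.15, 14.20 and 13.92 with LPS and 9.57, 9.28 and 9.10 with IL-4. Cish and Socs2, inhibitors known as STAT5 targets, were on the other side, Cish at 7.29, 7.41 and 6.94 with LPS and 10.60, 10.62 and 10.90 with IL-4. Irf7, the amplifier of type I interferon, had 11.07, 11.02 and 11.06 with LPS and 7.95, 5.68 and 5.68 with IL-4. Irf4, a factor of alternative activation, was not detected with LPS (4.87, 5.07 and 4.54) and had 7.21, 8.64 and 8.89 with IL-4, at least 5.46-fold lower with LPS. Stat6 itself differed by -0.48 (SE 0.17; limma, adjusted p = 0.0268). It lost the call without LPS replicate 2 (adjusted p = 0.124), IL-4 replicate 1 (0.0839) or IL-4 replicate 3 (0.0578), and without both arrays that stood apart (0.0535). LPS replicates 1 and 2 shared a slide, as inferred from the numbers of the data columns, since no label names a slide. With this inferred slide as a block the difference was -0.30 (limma, adjusted p = 0.271). The call was also lost with median scaling (0.444), with cyclic loess (0.0548) and in fits of the 6 arrays (0.0969) or the 9 WT arrays (0.0531). Socs1 showed no call, at 7.95, 7.66 and 7.60 with LPS and 8.07, 7.42 and 7.43 with IL-4, while the unstimulated arrays had 4.96, 4.58 and 4.79.

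**Figure D3:**
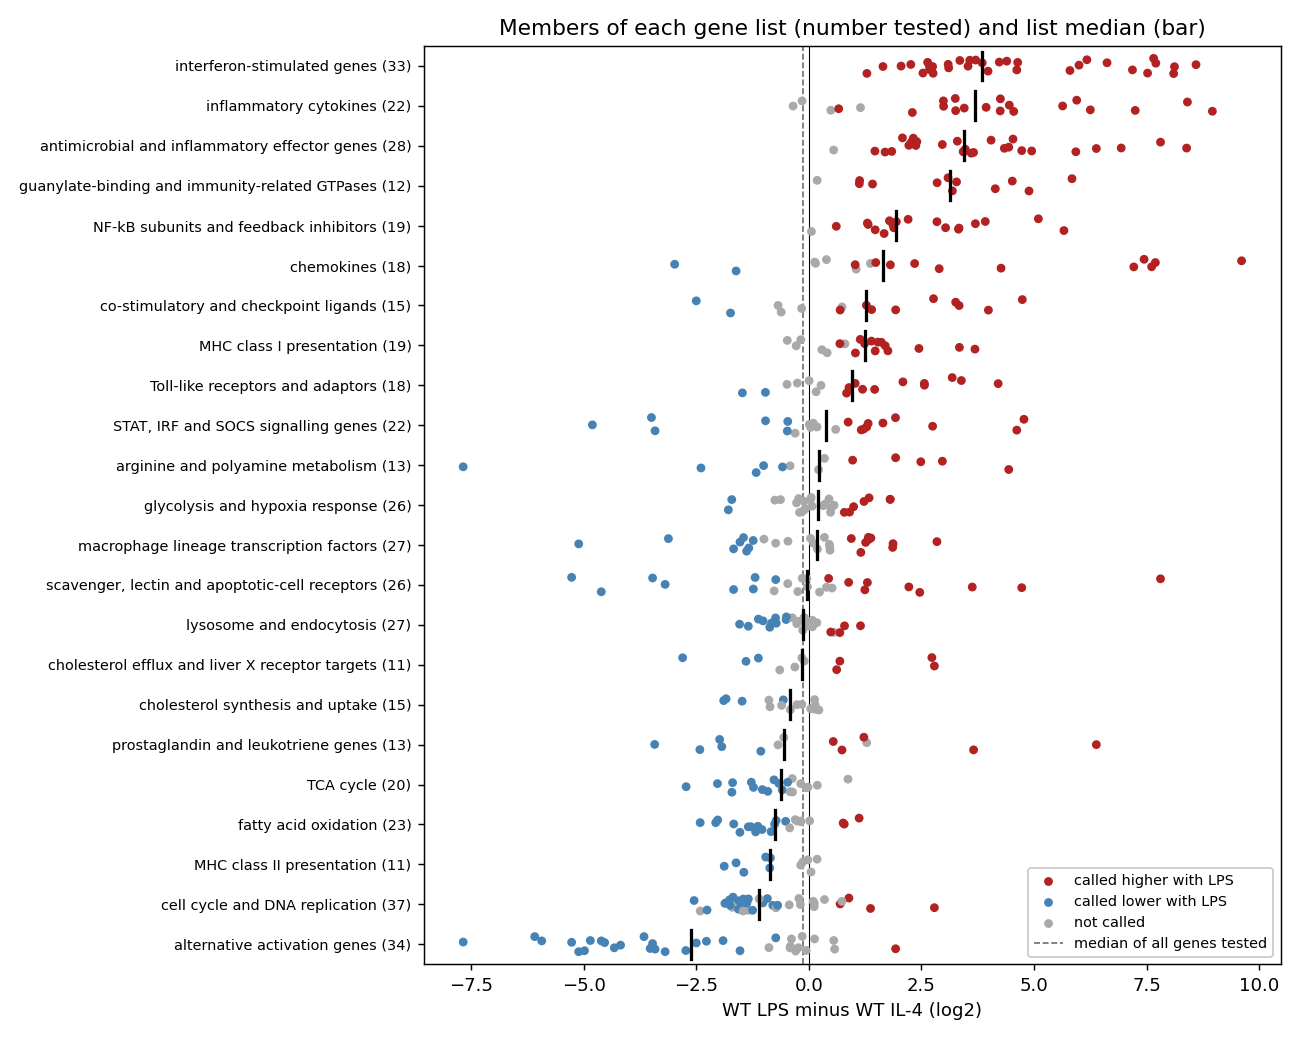
Each point is a gene of the list on its row (number tested in brackets), placed by WT LPS minus WT IL-4 (log2); red is called higher, blue called lower, grey not called, black bars are list medians and the dashed line is the median of all genes (-0.13). Medians run from 3.85 for interferon-stimulated genes to -2.62 for alternative activation genes.

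Alternative activation genes were called lower with LPS in 22 of 34 cases (64.7% against 27.4% of all genes), higher in 1 and not called in 11, with a median of -2.62, or -2.36 with undetected genes at their bound. Of the 34, 10 were detected in 1 group only and entered the test only through it. The list holds genes known from IL-4-treated mouse macrophages, so the counts describe those known genes. Without IL-4 replicate 1, 3 were called higher. Chil3, a chitinase-like protein named here after its values were seen, had 6.30, 6.23 and 7.70 with LPS and 11.18, 11.28 and 10.74 with IL-4. The member called higher was Slc7a2, a transporter of arginine, at 11.10, 11.20 and 10.60 with LPS, 8.70, 9.23 and 9.19 with IL-4 and 5.10, 5.98 and 6.03 unstimulated. Members with no call included Tgm2, a transglutaminase (12.65, 12.68 and 12.82 with LPS and 13.47, 11.91 and 12.39 with IL-4), Il4ra, the IL-4 receptor chain, and Itgax. Without IL-4 replicate 1, Tgm2 was called higher with LPS (0.57; limma, adjusted p = 0.0433). Of 26 scavenger, lectin and apoptotic-cell receptors 9 were called higher (34.6%, against 17.7% of all genes) and 8 lower (30.8%, close to the 27.4% of all genes), and 6 and 5 with median scaling. Marco, a scavenger receptor for bacteria, had 11.57, 11.37 and 12.40 with LPS and 8.77, 6.53 and 5.87 with IL-4, and Fcgr1, the high affinity IgG receptor, differed by 3.63 (SE 0.33). Mrc1, the mannose receptor, had 10.95, 11.01 and 10.18 with LPS and 13.79, 14.25 and 14.51 with IL-4, and Clec7a, the beta-glucan receptor Dectin-1, differed by -3.19 (SE 0.25). Clec10a, the paralogue of Mgl2, was at least 18.8-fold lower.

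Of 15 ligands seen by T cells 9 were called higher (60.0%, against 17.7% of all genes) and 2 lower (13.3%, against 27.4%), or 3 lower without IL-4 replicate 1. Cd40 had 14.30, 14.26 and 13.99 with LPS and 10.05, 10.22 and 10.32 with IL-4, and the adhesion molecule Icam1 differed by 2.77 (SE 0.18). Pdcd1lg2, the PD-1 ligand PD-L2, was not detected with LPS (5.31, 5.30 and 5.07) and had 7.41, 8.16 and 7.62 with IL-4. Cd86 was not called, with 10.50, 10.64 and 10.68 under LPS and 12.12, 10.04 and 10.15 under IL-4. Genes of MHC class I presentation were called higher in 13 of 19 cases (68.4%, against 17.7% of all genes, median 1.24). They were called lower in 0, or 1 without IL-4 replicate 1. Leading them were their transactivator Nlrc5, at 11.20, 11.19 and 11.12 with LPS and 7.67, 7.31 and 7.47 with IL-4, and the peptide transporter Tap1 (3.34, SE 0.31). Genes of MHC class II presentation were called lower in 6 of 11 cases (54.5%, against 27.4% of all genes) and higher in 0. The 6 were processing genes and the transactivator Ciita, among them H2-DMa, which edits bound peptide, at 9.05, 8.89 and 8.82 with LPS and 10.32, 11.10 and 10.98 with IL-4. The class II chains were not called: H2-Ab1 had 12.06, 11.90 and 11.52 with LPS and 11.35, 11.68 and 11.90 with IL-4. Ciita had 6.19, 6.43 and 5.0 with LPS and 6.58, 7.95 and 7.94 with IL-4 (limma, adjusted p = 0.0209), and was not called without LPS replicate 3 (adjusted p = 0.104), IL-4 replicate 2 (0.0785) or IL-4 replicate 3 (0.077). Without LPS replicate 3, 3 of the 11 genes were called lower, and with median scaling 2 were, not including Ciita (adjusted p = 0.167).

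Enzymes that use arginine lay on both sides, 5 of 13 arginine and polyamine genes being called higher and 5 lower (38.5% each, against 17.7% and 27.4% of all genes), or 4 and 2 with median scaling. Nos2, the inducible nitric oxide synthase, had 9.78, 9.65 and 8.62 with LPS and was not detected with IL-4 (5.48, 4.52 and 4.75), at least 14.3-fold higher with LPS, next to the reverse pattern of Arg1. Ass1, which rebuilds arginine from citrulline, was higher (10.66, 10.49 and 10.00 with LPS and 6.82, 7.64 and 7.80 with IL-4), as was the mitochondrial Arg2 (2.49, SE 0.29). Srm, spermidine synthase, was lower, at 6.77, 6.51 and 7.06 with LPS and 8.56, 9.23 and 9.74 with IL-4, and Odc1, the entry enzyme of polyamine synthesis, differed by -0.59 (SE 0.15) but was not called with median scaling (-0.34; limma, adjusted p = 0.727) or cyclic loess (-0.27; adjusted p = 0.173).

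Of 20 TCA cycle genes 12 were called lower (60.0%), 0 higher and 8 not called (median -0.63). Of 23 fatty acid oxidation genes 14 were called lower (60.9%), 3 higher and 6 not called (median -0.76). Over all genes 27.4% were called lower. Leaving out either array that stood apart gave 1 TCA cycle gene called higher. Idh1, the cytosolic isocitrate dehydrogenase, had 8.80, 8.68 and 8.33 with LPS and 11.49, 11.39 and 11.11 with IL-4. Fh1, fumarate hydratase, differed by -2.03 (SE 0.11), and Echs1, a hydratase of beta-oxidation, by -2.42 (SE 0.15). Acadm, the medium-chain acyl-CoA dehydrogenase, had 9.39, 9.27 and 9.20 with LPS and 11.20, 11.39 and 11.48 with IL-4, and was at 11.34, 11.23 and 11.28 unstimulated. Ppargc1b, a coactivator of mitochondrial genes, had 6.25, 6.44 and 6.20 with LPS, 8.25, 8.28 and 8.44 with IL-4 and 5.92, 5.88 and 6.57 unstimulated. With median scaling in place of quantile normalization 3 TCA cycle genes and 6 fatty acid oxidation genes were called lower and 0 of either higher. Of 26 glycolysis and hypoxia response genes 7 were called higher (26.9%, against 17.7% of all genes), 2 lower (7.69%, against 27.4%) and 17 not called. Without IL-4 replicate 1, 4 were lower, and with median scaling 4 were higher, Hif1a not among them (limma, adjusted p = 0.0626). Hk3, a hexokinase of myeloid cells, had 12.60, 12.64 and 12.45 with LPS and 10.70, 11.33 and 11.65 with IL-4, and Hif1a and Slc2a1, the glucose transporter GLUT1, differed by 1.22 and 0.99. Gapdh, Pgk1, Pgam1 and Ldha, enzymes of the lower pathway, were not called, Ldha standing at 12.80, 12.87 and 12.89 with LPS and 12.42, 13.00 and 13.03 with IL-4.

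Of 15 cholesterol synthesis and uptake genes 4 were lower (26.7%, close to the 27.4% of all genes), 0 higher and 11 not called, with 6 lower without IL-4 replicate 1 and 2 with median scaling. Dhcr7, the last enzyme of synthesis, had 5.76, 5.71 and 5.14 with LPS and 7.27, 7.41 and 7.45 with IL-4. Of 11 genes of efflux and liver X receptor targets 4 were higher (36.4%, against 17.7% of all genes). The 3 lower were 27.3%, close to the 27.4% of all genes. Without LPS replicate 3, 2 were higher and 2 lower, and with median scaling 1 and 1. Nr1h3, the liver X receptor alpha, had 11.28, 11.22 and 11.91 with LPS and 9.29, 8.28 and 8.47 with IL-4, while Abcg1, an exporter and target of that receptor, had 5.03, 5.99 and 5.01 with LPS and 8.59, 7.74 and 8.11 with IL-4. Among 13 prostaglandin and leukotriene genes 5 were called higher and 5 lower (38.5% each, against 17.7% and 27.4% of all genes). The counts were 4 and 7 without both arrays that stood apart, and 2 and 4 with median scaling. The inducible cyclooxygenase Ptgs2 (9.44, 9.66 and 6.89 with LPS, not detected with IL-4) and Ptges were higher. Pla2g15, a lysosomal phospholipase, had 10.56, 10.70 and 10.89 with LPS and 14.23, 14.05 and 14.16 with IL-4, and Tbxas1, thromboxane synthase, differed by -2.42 (SE 0.31). Of 27 lysosomal genes 10 were lower (37.0%, against 27.4% of all genes), 4 higher (14.8%, against 17.7%) and 13 not called. Lipa, the acid lipase, had 11.17, 11.14 and 10.88 with LPS and 12.38, 12.31 and 12.55 with IL-4, and the cathepsin Ctsc was higher by 1.15 (SE 0.14). With median scaling 1 lysosomal gene was called lower and 1 higher, and Lipa was not called (limma, adjusted p = 0.0915).

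Cell cycle genes were called lower with LPS in 18 of 37 cases (48.6%, against 27.4% of all genes) and higher in 4 (10.8%, against 17.7%), with a median of -1.11, or -0.80 with undetected genes at their bound. Of the 37, 11 were detected in 1 group only and entered the test only through it. The 2 arrays that stood apart had low values here. Cdc20, an activator of the anaphase complex, had 6.25, 6.35 and 5.52 with LPS, 6.80, 9.53 and 9.44 with IL-4 and 10.02, 9.89 and 9.88 unstimulated, and lost its call without IL-4 replicate 2 (limma, adjusted p = 0.0567) or 3 (0.0542) and with median scaling (0.0813). Plk1, a mitotic kinase, had 7.34, 7.03 and 4.74 with LPS and 6.19, 10.22 and 9.95 with IL-4 and was not called with all arrays, but was called without LPS replicate 1 (adjusted p = 0.0436), without IL-4 replicate 1 (0.00164) and without both arrays that stood apart (-2.90; limma, adjusted p = 0.0056). Without both arrays 24 of the 37 genes were called lower, and without LPS replicate 3 alone 12 were. Without IL-4 replicate 1 alone 24 were lower and 2 higher, and with median scaling 6 were lower and 1 higher. Mcm2, a subunit of the replicative helicase, was not detected with LPS (5.09, 5.38 and 4.78) and had 6.25, 7.01 and 7.48 with IL-4. Ccnd2, a G1 cyclin, was higher, at 9.97, 10.15 and 9.24 with LPS and 7.06, 6.90 and 7.03 with IL-4.

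Among 27 macrophage transcription factors 9 were called higher (33.3%, against 17.7% of all genes) and 8 lower (29.6%, close to the 27.4% of all genes), or 5 and 5 with median scaling. Batf, an AP-1 family factor, had 10.89, 10.88 and 11.15 with LPS and 8.85, 7.75 and 7.78 with IL-4, and Cebpb differed by 1.86 (SE 0.13). Bhlhe40, a circadian and metabolic repressor, had 9.04, 8.81 and 8.47 with LPS and 11.53, 12.07 and 12.09 with IL-4, and Cebpa was not detected with LPS and at least 1.83-fold lower. Irf8, a lineage factor, showed no call at 9.46, 9.68 and 8.76 with LPS and 10.22, 8.76 and 8.82 with IL-4. Csf1r, the receptor for the growth factor in the culture medium and a marker of macrophages, was lower with LPS (10.77, 10.70 and 10.82 against 12.84, 12.07 and 12.04 with IL-4; -1.55, SE 0.29).

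Nur77-KO cells, measured on other arrays, gave a similar picture. On the WT arrays with LPS or IL-4 the Y-linked genes Eif2s3y, Kdm5d and Uty were undetected. The paper lists Eif2s3y among the most raised and Xist among the most lowered genes of Nur77-KO cells. Genotype and sex may thus not be told apart here, and sex was not tested. Between Nur77-KO LPS and Nur77-KO IL-4, 1692 genes were called higher (15.6%) and 2860 lower (26.4%). Of the genes called in WT cells, 1851 of 1909 and 2926 of 2960 had a difference of the same sign in Nur77-KO cells, and 1455 and 2468 were also called there. The differences correlated over 10814 genes at r = 0.947 (Spearman's rho 0.877), as a description, since genes are not independent. The test of the difference between the genotypes called 0 genes with limma, with a smallest adjusted p of 0.382, and 529 genes had an unadjusted p under 0.05, close to the 541 that 5% of the genes make. When 1 array of each of the 4 stimulated groups was left out, the one with the most genes beyond both others, a choice made after the data were seen, 82 genes were called. These arrays were picked from the same values, which makes the remaining spread smaller by construction. Ciita was the gene with the smallest p in that fit (adjusted p = 0.000113), and the single gene called in opposite directions in the full fits, at 1.48 in Nur77-KO cells and -1.62 in WT cells. With all arrays its difference between genotypes was not called (adjusted p = 0.627).

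**Figure D4:**
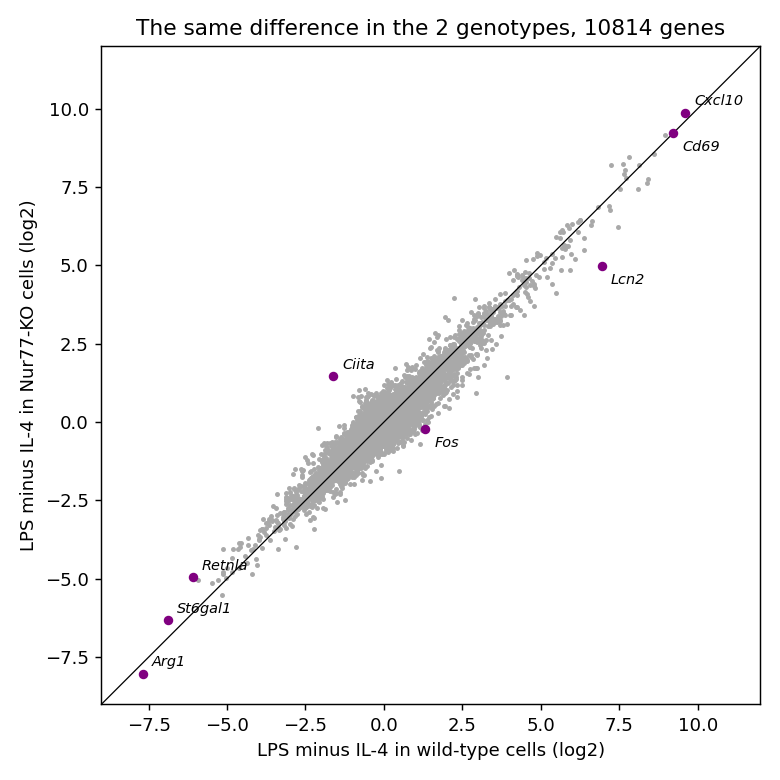
Each point is a gene, with LPS minus IL-4 in WT cells on the x axis and the same difference in Nur77-KO cells on the y axis (both log2, 3 arrays a group); the line marks equal values and purple points are named genes. Points follow the line (r = 0.947 over 10814 genes), and Ciita lies off it at 1.48 in Nur77-KO cells and -1.62 in WT cells.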

How the data were processed

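RNA of BMM was hybridised to 18 arrays of the Illumina MouseWG-6 v2 type. The authors' deposited files hold bead intensity with its detection p-value, as GenomeStudio 2011.1 exported them. A second table holds log2 values, for which the authors corrected background by normexp with control probes and quantile-normalized the arrays (limma 3.10.2, R 2.14.0). The deposited log2 values were used here in R 4.3.3 with limma 3.58.1. Samples were grouped by their titles. No label names a slide, and slides were inferred from the numbers of the deposited data columns.

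Of 45281 probes, 34885 carried 1 gene symbol, 18 several and 10378 none in the probe table used, and the 18 and the unnamed were left out. Probes detected (p under 0.05) on at least 1 of the 6 arrays were kept (16388), and each gene was represented by its brightest probe over those arrays; 3819 genes had 2 or more, and 33 of 2077 called genes with another detected probe had one called in the opposite direction. Quantile normalization makes the arrays' distributions alike, so levels are relative within an array. Group means were fitted jointly to the 18 arrays (12 residual and 3.33 prior degrees of freedom), with Benjamini-Hochberg adjustment over 10814 genes, two-sided. The number of arrays limits the precision. The fit was tested on simulated data.

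Named genes were the 15 largest differences each way among called genes without overlap and up to 5 called members of a list in each direction; uncalled examples, Chil3, Csf1r, Cd79b and genes named for an array that stood apart were chosen after their values were seen. The members and lists were chosen with earlier results of these data known. Lists and promoter motifs are described by counts, with no test of a list. Alternatives were other background corrections, normalizations, filters and probe rules, fits of 6 or 9 arrays, slide and replicate blocks, another prior, the thresholds of the methods (p under 0.05 without adjustment and a 1.4-fold change), each array left out in turn, and, added after the data were seen, fits without the arrays that stood apart.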

Additional observations from a re-analysis of the deposited data

How the results depend on the processing

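The counts of 1909 genes higher and 2960 lower with LPS stayed within 1.5 times under all alternatives but median scaling, with 796 higher and 889 lower, and testing every probe by itself, with 2970 probes higher. Of the 4869 genes 1682 were still called with median scaling and 10 had the opposite sign; the cause was not tested. Leaving out 1 array at a time gave 1766 to 1835 higher and 2645 to 3023 lower, with 0 sign changes. The labels do not say whether replicate numbers pair the arrays. Correlations of deviations between LPS and IL-4 arrays of the same number were -0.24, 0.24 and -0.12, too few values to decide it. The replicate block gave 1951 higher and 3016 lower. The test between genotypes called 0 genes in the other fits where it could be run, except that leaving out single arrays gave 0 to 2; it called 3 without both WT arrays that stood apart and 82 without 1 array of each stimulated group, both settings added after the data were seen. It could not be run on 6 or 9 WT arrays. Of 166 named called genes 124 kept their call in all 22 alternative fits, and none changed sign. Pkm, not called in the report, was called at 0.53 when a gene's probes were averaged, and Ccl7, H2-Ab1, Ldha and Adgre1 were called higher with cyclic loess. List medians that changed sign were those of scavenger, lectin and apoptotic-cell receptors (-0.04; 0.20 with median scaling, 0.26 with cyclic loess, 0.27 with slide as a block, -0.15 to 0.21 with 1 array left out, 0.24 on the slide that holds both groups, 0.10 with probes detected on 3 of 6 arrays, 0.02 with slide as a random block, 0.08 without both arrays that stood apart), arginine and polyamine metabolism (0.21; -0.20 with averaged probes, -0.02 with median scaling and without both arrays that stood apart), cholesterol efflux (-0.16; 0.08 on that slide) and macrophage transcription factors (0.19; -0.0653 on that slide). On that slide, as inferred, 1893 of the genes called higher and 2940 of those called lower had the same sign. Its WT arrays are among the 6 that gave the calls, so this agreement was largely built in and is no check. Genes near background give only bounds.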
